A study of Macaca mulatta and Mus musculus and Rattus norvegicus with 12 samples.

Results

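Bone cells sense load through channels in the membrane, pass the signal between cells through gap junctions and release channels, and answer it partly through a pair of transcriptional co-activators. The 10 genes described here cover these steps: the mechanosensitive channels PIEZO1, PIEZO2 and TRPV4, the polycystins PKD1 and PKD2, the connexin GJA1, the pannexins PANX1 and PANX3, and the co-activators YAP1 and WWTR1 (the gene of TAZ). They were taken by gene symbol from RNA-Seq tables of osteocyte-enriched bone. All 10 had a row in mouse, among 22339 symbols with a read in some library, and all 10 had one in rat, among 19234. In macaque 6 of the 10 had a row under the same symbol, among 18894. PIEZO1, PIEZO2, YAP1 and WWTR1 were absent from the macaque table under these symbols. A row under FAM38A, the older symbol of PIEZO1, and rows LOC704382 and LOC711567, which the RefSeq gene table names YAP1 and WWTR1, were read as those genes and are given beside the 6.

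The study compared calvaria with tibia within each of 3 species, to find expression that depends on the skeletal site. Mouse libraries came from C57BL6 animals labelled 4 months old, with M4 and M8 from calvaria and M5 and M7 from tibia (2 libraries per site, each a pool of 3 animals). Rat libraries came from Wistar animals labelled 6 months old, with 1 calvaria library (R1) and 1 tibia library (R3), each a pool of 2 animals, so rat differences have no replicate check. Macaque libraries came from rhesus macaques labelled 4 to 6 months old, an age for which the methods give years instead, with G1, G3 and T1 from calvaria and G2, G4 and T2 from tibia (3 libraries per site, each from 1 animal). Per the methods all animals were female. No group was treated or carried an engineered allele. The periosteum had been removed and the bone digested with collagenase. Marrow was spun out of the rodent tibias, and the rodent calvariae were cut away from the sutures and the marrow spaces. Libraries held 13934813 to 16826535 reads in mouse, 12233256 to 14255423 in rat and 7951585 to 10342459 in macaque. Levels below are normalized CPM, the CPM after scaling of library sizes by trimmed mean of M values (TMM). Mouse and rat shared a sequencing lane and macaque ran on another, so differences in level between macaque and the rodents cannot be told apart from lane, genome and annotation.

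As background, PIEZO1 and PIEZO2 form trimeric cation channels that open when the membrane is stretched, and PIEZO1 is required in bone cells for the response to load. TRPV4 is a calcium-permeable channel opened by swelling and heat, and PKD1 and PKD2 form a receptor and channel complex found on the primary cilium. GJA1 encodes connexin 43, the main gap junction protein of osteocytes and osteoblasts, which also forms hemichannels. PANX1 forms channels that release ATP, and PANX3 is a pannexin of osteoblasts and chondrocytes. YAP1 and TAZ enter the nucleus when cells spread or Hippo kinase activity falls, and bind TEAD factors there.

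The libraries were not equal in the RNA of cell type markers, and these values stand beside every result below. Osteocyte markers, of which 8 of 8 were measured in mouse, 7 in rat and 5 in macaque, summed to 1802 to 2858 normalized CPM in mouse calvaria and 8655 to 11592 in mouse tibia, to 864 in rat calvaria and 8016 in rat tibia, and to 5158 to 5920 in macaque calvaria and 7702 to 17479 in macaque tibia. The macaque sum was nearly all MEPE, an osteocyte matrix protein, at 4608 to 5341 in calvaria and 7099 to 16671 in tibia. Of the 5 macaque osteocyte markers 2 were called higher in tibia and 1, CAPG, higher in calvaria (0.98, adjusted p 0.0033), while DMP1 and PHEX overlapped between the sites, and the list median was -0.21. SOST, a defining osteocyte gene, was not analysed here in macaque, and its rat row held 5 calvaria and 15 tibia reads. Neutrophil markers ran the other way and summed to 42559 to 58811 in mouse calvaria against 25393 to 30590 in tibia, and to 35154 to 58184 in macaque calvaria against 6937 to 13694 in tibia. In rat, 7 of 7 skeletal muscle markers were past the ratio threshold in favour of tibia and summed to 763 in tibia and 8.22 in calvaria. Mouse library M8 had the lowest osteocyte sum and the highest neutrophil sum of its species, and macaque library T2 had the highest osteoblast sum, 138019 against 38075 to 90412 in the other macaque libraries. The part of cell makeup in the differences was not tested, and in bulk tissue fewer cells of a type cannot be told apart from less RNA per cell.

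GJA1 was the member called under its own symbol in macaque, although its libraries overlapped between the sites there. Its level was higher in tibia than in calvaria in all 3 species on average, and the difference passed the test in macaque but not in mouse. No member passed the test in mouse, where 0 of 10 were called against 2.28% of all symbols, and 2 of 10, GJA1 and PIEZO1, had an unadjusted p under 0.05 in the edgeR quasi-likelihood test. In macaque 1 of 6 was called, GJA1, against 19.7% of all symbols, and the row read as YAP1 was called as well. In rat 1 of 10 was past a log2 ratio of 2, PIEZO2, against 9.69% of all symbols. Called means a false discovery rate under 0.2, taken over all symbols tested, together with a fold change over 1.1. The median log2 fold change of calvaria over tibia was -0.45 over the 10 members in mouse, beside 0.05 over all symbols, and -0.69 over the 6 in macaque, beside 0.03 over all symbols. The macaque median includes PKD1, which had 4 reads in all. With the 3 rows under other names it was -0.58 over 9. In rat the median log2 ratio was -1.04 over the members and -0.29 over all symbols, and TMM scaling moved the latter to -0.0047, so rat ratios read against that shift.

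**Figure D1:**
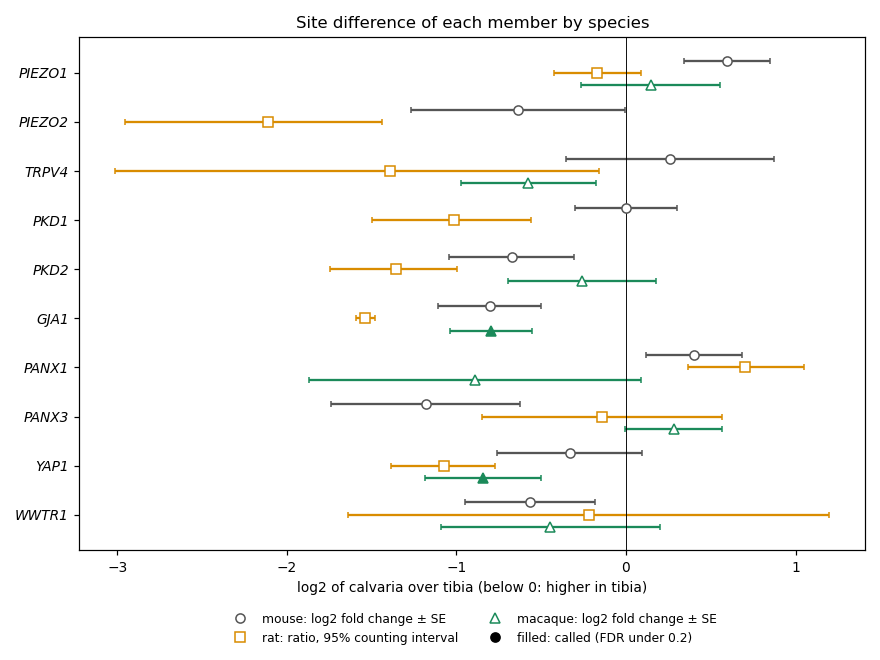
Log2 of calvaria over tibia for each member in mouse (circles, log2 fold change ± SE), rat (squares, log2 ratio of 2 libraries with 95% counting interval) and macaque (triangles, log2 fold change ± SE), with filled symbols for called genes. Macaque PIEZO1, YAP1 and WWTR1 are the rows under other names, macaque PKD1 is not drawn, and only GJA1 and YAP1 in macaque are filled, at -0.80 and -0.84.

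Levels per length put GJA1 far above the other 9 genes. Per kilobase of exon, GJA1 reached 97.3 normalized CPM in mouse calvaria and 170 in mouse tibia on average, 12.9 and 15.2 times the next member, WWTR1. In rat it reached 91.5 in calvaria and 218 in tibia per kilobase, 13.8 times PANX1 and 54.4 times YAP1, which came next at the respective site. In macaque it reached 270 in calvaria and 469 in tibia per kilobase, 31.6 and 66.6 times PANX3. Below GJA1 the order differed between species and many neighbours were not separated. In mouse calvaria PIEZO1 (5.19 per kilobase), PANX1 (5.06) and PKD1 (5.04) had overlapping ranges of libraries. PIEZO2 was the lowest member in mouse, with 0.261 per kilobase in calvaria and 0.409 in tibia.

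**Figure D2:**
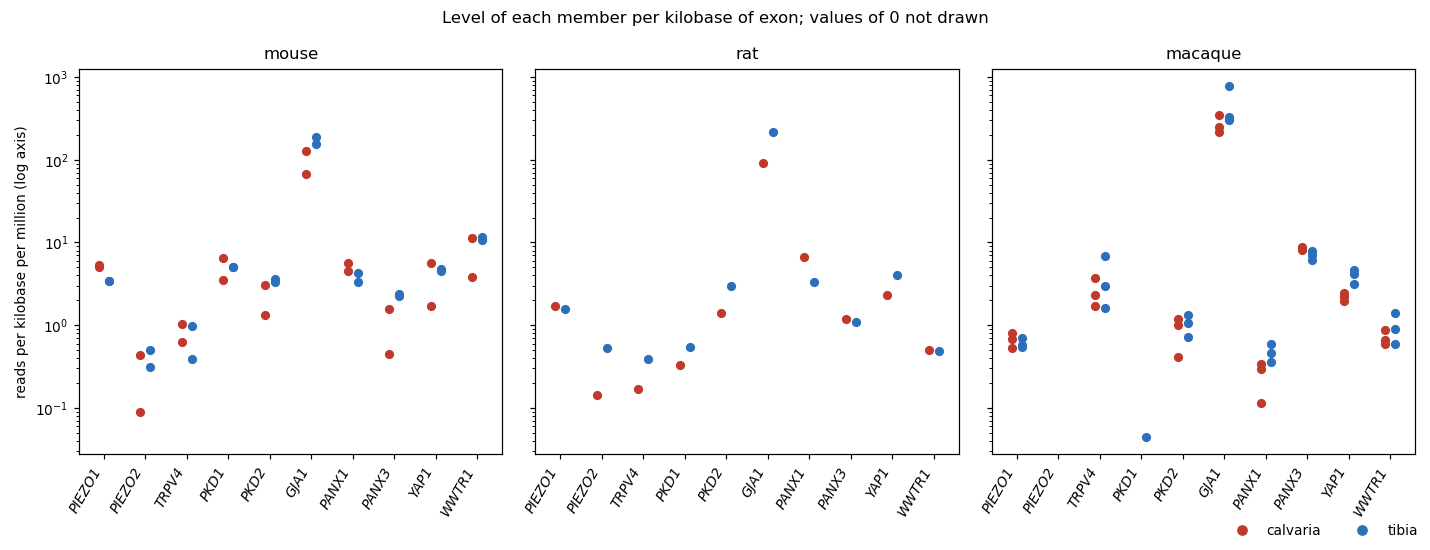
Normalized CPM per kilobase of exon (log axis) for each member, with 1 point per library, calvaria in red and tibia in blue, and values of 0 not drawn. GJA1 lies above all other members in every library, from 67.9 in M8 to 778 in T2. Macaque PIEZO1, YAP1 and WWTR1 are the rows under other names.

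Among the channels, Piezo1 was higher in mouse calvaria without passing the test. Mouse Piezo1 lies at chr8:122481698-122551329 on the minus strand of GRCm38, and its exons overlap those of Ctu2 on the opposite strand. Counts made without strand cannot place reads of that overlap by strand. The Piezo1 level was 47.4 normalized CPM in M4 and 50.6 in M8, against 32.7 in M5 and 32.2 in M7. Both calvaria libraries were above both tibia libraries. The log2 fold change was 0.60 ± 0.26 (SE) with an adjusted p of 0.54. It stayed between 0.54 and 0.61 with any library left out, and it was called without M4 (adjusted p 0.0031) and without M8 (0.0236), fits in which the single calvaria library is assumed to vary like the tibia libraries. In rat, PIEZO1 had 257 reads in calvaria and 248 in tibia, a log2 ratio of -0.17 with a 95% counting interval from -0.43 to 0.09, and TMM scaling turned its sign to 0.12. In macaque the FAM38A row gave 3.98, 6.02 and 5.21 normalized CPM in G1, G3 and T1 and 4.16, 4.34 and 5.24 in G2, G4 and T2. The macaque sites overlapped, with a log2 fold change of 0.14 ± 0.41 and an adjusted p of 0.87, and the sign turned to -0.056 with library size alone.

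PIEZO2, which serves touch and proprioception in sensory neurons, was a low member everywhere it was measured. In mouse it stood at 4.74 normalized CPM in M4, 0.991 in M8, 5.54 in M5 and 3.42 in M7. The sites overlapped, because M4 was above M7, and only M8 was low. The log2 fold change was -0.64 ± 0.63 with an adjusted p of 0.87, and it ran from -2.20 without M4 to 0.066 without M8. In rat 20 reads came from calvaria and 77 from tibia, a log2 ratio of -2.11 with a counting interval from -2.95 to -1.44. That was the 1 member past the rat threshold of 2, a side on which 8.14% of all rat symbols lay, and with TMM scaling its ratio was -1.83 and no longer past it. Skeletal muscle markers were higher in the same tibia library, and their part in the PIEZO2 ratio was not tested. A macaque row described as similar to FAM38A, LOC722206, received no symbol from the gene table and was looked at after its values were seen. It held 192 to 409 reads per library, at 23.3 to 46.7 normalized CPM, above the 3.98 to 6.02 of the FAM38A row. Its log2 fold change was -0.28 ± 0.22 and was not called, with a sign opposite to that of FAM38A. It is not assigned to either gene.

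TRPV4 was not called in mouse, nor in macaque with TMM scaling and all libraries. In mouse (chr5:114622152-114658421, minus strand) it stood at 3.39 and 2.06 normalized CPM in M4 and M8 and at 1.30 and 3.28 in M5 and M7. These values overlapped, and the log2 fold change was 0.26 ± 0.62 with an adjusted p of 0.92. In rat 7 reads came from calvaria and 17 from tibia, a log2 ratio of -1.39 with a counting interval from -3.01 to -0.16. In macaque it stood at 4.58, 6.27 and 10.1 normalized CPM in G1, G3 and T1 and at 8.09, 4.34 and 18.6 in G2, G4 and T2. The libraries lettered T were the highest of their sites, and the sites overlapped. The macaque log2 fold change was -0.58 ± 0.40 with an adjusted p of 0.44. TRPV4 was called with library size alone (-0.76, adjusted p 0.174), a scaling that moved the median of all macaque symbols from 0.03 to -0.18, and it was called without T1 (adjusted p 0.153) and without G4 (0.0993). Without T2 its log2 fold change was 0.17.

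Neither polycystin was called in mouse or macaque, and mouse Pkd2 separated the sites without overlap. Mouse Pkd1 (chr17:24549834-24596508, plus strand), whose exons overlap those of Tsc2 on the opposite strand, stood at 93.0 and 50.6 normalized CPM in M4 and M8 and at 72.2 and 71.2 in M5 and M7. The calvaria libraries lay on either side of the tibia libraries, and the log2 fold change was 0.0025 ± 0.30 with an approximate 95% interval from -0.59 to 0.59. Mouse Pkd2 (chr5:104459450-104505819, plus strand) stood at 19.3 and 8.31 in calvaria and at 23.1 and 21.1 in tibia, without overlap. Its log2 fold change was -0.67 ± 0.37, with an adjusted p of 0.73. In rat PKD1 had 62 reads in calvaria and 108 in tibia, a log2 ratio of -1.01, and PKD2 had 89 and 197 reads, a ratio of -1.36 with a counting interval from -1.74 to -0.999. Macaque PKD2 stood at 6.03, 2.13 and 5.09 in G1, G3 and T1 and at 6.78, 3.65 and 5.44 in G2, G4 and T2. These values overlapped, with a log2 fold change of -0.26 ± 0.44 and an adjusted p of 0.77. Macaque PKD1 held 4 reads in G2 and none in the other 5 libraries, too few to compare the sites, and no fold is given. The part of annotation in this low count was not tested.

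**Figure D3:**
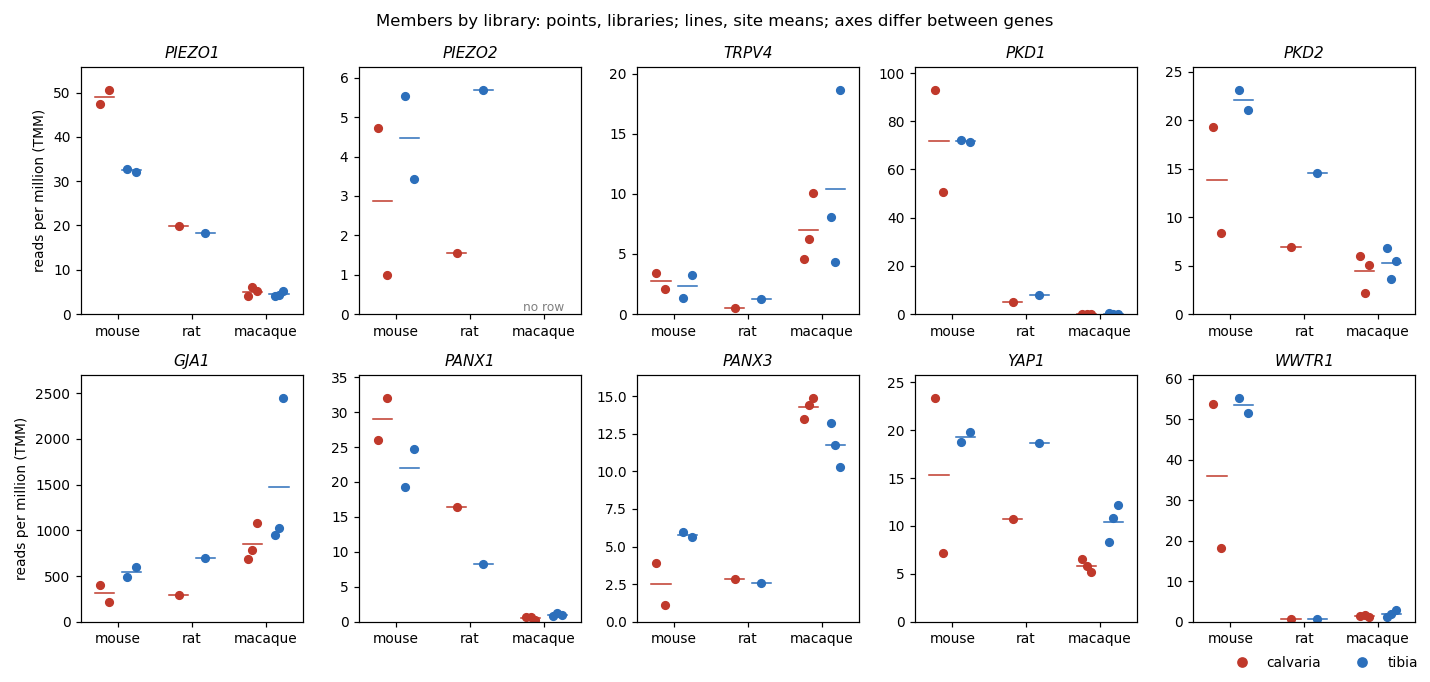
Normalized CPM of each member in every library (points) with the mean of each site (lines), calvaria in red and tibia in blue, on a linear axis from 0 that differs between genes. Macaque PIEZO1, YAP1 and WWTR1 are the rows under other names. Mouse calvaria library M8 is the lower of its site for 8 of 10 genes and the higher for PIEZO1 and PANX1, and macaque GJA1 shows 1 tibia library, T2, at 2453 above all others.

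GJA1, connexin 43, was higher in tibia by 1.74-fold in macaque and by a like size in mouse, where it was not called. Mouse Gja1 lies at chr10:56377330-56402513 on the plus strand. It stood at 406 and 218 normalized CPM in M4 and M8 and at 492 and 598 in M5 and M7. Both tibia libraries were above both calvaria libraries. The log2 fold change was -0.80 ± 0.31 with an adjusted p of 0.42. It ran from -1.35 without M4 to -0.43 without M8, fits with a single calvaria library and so no spread between calvaria libraries. In rat GJA1 had 3774 reads in calvaria and 9400 in tibia. The log2 ratio was -1.54 with a counting interval from -1.59 to -1.48, 2.9-fold higher in tibia, and it was -1.25 after TMM scaling.

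In macaque GJA1 stood at 685, 783 and 1085 normalized CPM in G1, G3 and T1, a mean of 851 ± 209 (SD, n = 3), and at 954, 1026 and 2453 in G2, G4 and T2, a mean of 1478 ± 846 (SD, n = 3). The sites overlapped, because calvaria library T1 was above tibia libraries G2 and G4, and T2 alone lay far above the rest. The log2 fold change was -0.80 ± 0.24 with an adjusted p of 0.0251, called in favour of tibia, a side on which 9.43% of all macaque symbols were called. The call was lost in DESeq2 (adjusted p 0.374), without G3 (0.370) and without T2, where the log2 fold change was -0.21 and the adjusted p 0.463. Within the libraries lettered G, a setting added after the data were seen, it was -0.42 ± 0.16 and called (adjusted p 0.0574). The letter T has 1 library per site, and its log2 ratio of T1 over T2 was -1.18. Taking neighbouring library numbers as pairs, GJA1 was lower in calvaria in 3 of 3 pairs, with log2 ratios of -0.48, -0.39 and -1.18. Library T2 also had the highest osteoblast marker sum. Its osteocyte marker sum was the lowest of the tibia libraries, at 7702 against 17329 in G2 and 17479 in G4. The part of osteoblast or osteocyte RNA in the GJA1 value of T2 was not tested.

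The pannexins lay in opposite directions in mouse and macaque, and with all libraries neither was called in either species. Mouse Panx1 (chr9:15002128-15045478, minus strand) stood at 26.0 and 32.1 normalized CPM in M4 and M8 and at 19.2 and 24.8 in M5 and M7. Calvaria was above tibia without overlap, and the log2 fold change was 0.40 ± 0.29 with an adjusted p of 0.85. Rat PANX1 had 211 reads in calvaria and 111 in tibia, a log2 ratio of 0.70 with a counting interval from 0.37 to 1.05. Without TMM scaling it was the 1 rat member with a ratio above 0. With TMM scaling its ratio was 0.99, and PIEZO1, PANX3 and WWTR1 were above 0 as well. Macaque PANX1 held 6, 5 and 2 reads in G1, G3 and T1 and 7, 11 and 10 in G2, G4 and T2. After scaling, tibia was above calvaria without overlap, from counts so low that the log2 fold change of -0.89 had an SE of 0.98 and an adjusted p of 0.64.

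PANX3 was a low gene in rodents and the second highest member per length in macaque. Mouse Panx3 (chr9:37659902-37669235, minus strand) stood at 3.90 and 1.14 normalized CPM in M4 and M8 and at 5.93 and 5.61 in M5 and M7. Tibia was above calvaria, with a log2 fold change of -1.18 ± 0.56 and an adjusted p of 0.63. Rat PANX3 had 37 reads in calvaria and 35 in tibia, a log2 ratio of -0.14 that became 0.15 after TMM scaling. Macaque PANX3 stood at 13.5, 14.4 and 14.9 in G1, G3 and T1 and at 13.2, 11.8 and 10.3 in G2, G4 and T2. Here calvaria was above tibia after scaling, with a log2 fold change of 0.28 ± 0.29 and an adjusted p of 0.63. Without TMM scaling the sites overlapped, with tibia library G2 at 14.9 CPM above the calvaria libraries at 13.2 to 13.4. Chondrocyte markers, whose tissue is another source of PANX3, summed to 34.4 to 106 normalized CPM in mouse calvaria and 628 to 737 in mouse tibia. In macaque they summed to 5.19 to 10.3 in calvaria and 0.342 to 4.66 in tibia. Of the 7 markers, 7 had a read in mouse, 5 in rat and 4 in macaque. Between the sites these sums lay in the direction of PANX3 in mouse and macaque. Within macaque tibia they did not, since T2 had the highest sum and the lowest PANX3. In rat the sum was 8.06 in calvaria and 29.7 in tibia, while PANX3 reads were alike at both sites. That rat sum was mostly SOX9, with 103 reads in calvaria and 342 in tibia. COL2A1, the defining cartilage collagen, was called higher in mouse tibia (-3.96, adjusted p 0.0027) and in macaque calvaria (1.78, adjusted p 0.0313, 2 to 80 reads per library). Its reads made up most of the macaque sums, so there the call and the sums are not separate results. The part of chondrocyte RNA in the PANX3 values was not tested.

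YAP1 and WWTR1 had log2 values below 0 in all 3 species with all libraries, WWTR1 in rat with library size scaling only, and the YAP1 row alone was called, in macaque. Mouse Yap1 (chr9:7931999-8004596, minus strand), with exons that overlap the noncoding Gm20416 on the opposite strand, stood at 23.4 and 7.16 normalized CPM in M4 and M8 and at 18.8 and 19.8 in M5 and M7. The sites overlapped, since M4 was the highest library and M8 the lowest. The log2 fold change was -0.33 ± 0.43 with an adjusted p of 0.87, and without M8 it was 0.27. Rat YAP1 had 139 reads in calvaria and 252 in tibia, a log2 ratio of -1.07 with a counting interval from -1.39 to -0.77. The macaque row LOC704382 stood at 6.51, 5.77 and 5.21 in G1, G3 and T1 and at 8.31, 10.8 and 12.2 in G2, G4 and T2. Every tibia library was above every calvaria library, and the log2 fold change was -0.84 ± 0.34 with an adjusted p of 0.123. It kept its sign in all fits but was not called without G3, T1, G4 or T2 (adjusted p 0.230 to 0.277), nor within the libraries lettered G (-0.63, adjusted p 0.358). A further row with the same description, LOC708469, held no reads.

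WWTR1 was lower in rat and macaque than in mouse, at 0.504 and 0.481 normalized CPM per kilobase in rat calvaria and tibia and 0.708 and 0.964 in macaque, against 7.53 and 11.2 in mouse. Mouse Wwtr1 (chr3:57455649-57575910, minus strand) stood at 53.9 and 18.2 normalized CPM in M4 and M8 and at 55.4 and 51.5 in M5 and M7. M4 lay between the tibia libraries and M8 far below all 3. The log2 fold change was -0.57 ± 0.39 with an adjusted p of 0.84, and without M8 it was 0.0057. Rat WWTR1 had 10 reads at each site, and the macaque row LOC711567 stood between 1.203 and 2.82 normalized CPM, with a log2 fold change of -0.45 ± 0.65 and an adjusted p of 0.72. Per kilobase, Wwtr1 was 2.01 to 2.58 times Yap1 in the 4 mouse libraries, while WWTR1 was 0.12 to 0.396 times YAP1 in the 8 libraries of rat and macaque. The exonic length of the row was 4784 bases in mouse, 1538 in rat and 2021 in macaque, and the part of annotation in this difference was not tested.

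The groups of mouse libraries did not overlap for 5 of the 10 members, and this was so for 35.7% of all mouse symbols. Tibia was the higher site for GJA1, PKD2 and PANX3 and calvaria for PIEZO1 and PANX1. In macaque the sites did not overlap in normalized CPM for 2 of 6 members, PANX1 and PANX3, against 24.9% of all symbols. Nor did they overlap for YAP1 among the 3 rows under other names. Of all symbols, 0.712% were called in favour of calvaria and 1.57% in favour of tibia in mouse, and 10.3% in favour of calvaria in macaque.

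Mouse results turned on the calvaria libraries. In fits with a lone calvaria library, that library is assumed to vary like the tibia libraries. Without M4, so that M8 was the lone calvaria library, 9 of 10 members were called, all but TRPV4, against 34.4% of all symbols in that fit. Without M8, so that M4 was the lone one, 3 were called, GJA1, PIEZO1 and PKD1, against 17.6% of all symbols, and PKD1 was then higher in calvaria, at 0.37. Leaving out a tibia library gave 0 called. PIEZO2, YAP1 and WWTR1 were lower in calvaria without M4, at -2.20, -1.45 and -1.58, and lay at or above 0 without M8. The counts of the lists described below moved in the same fits, for YAP and TAZ targets from 3 of 22 to 20 of 22 without M4 and to 13 of 22 without M8. GJA1, PKD2 and PANX3 stayed below 0 and PIEZO1 and PANX1 above 0 in all 4 of these fits.

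**Figure D4:**
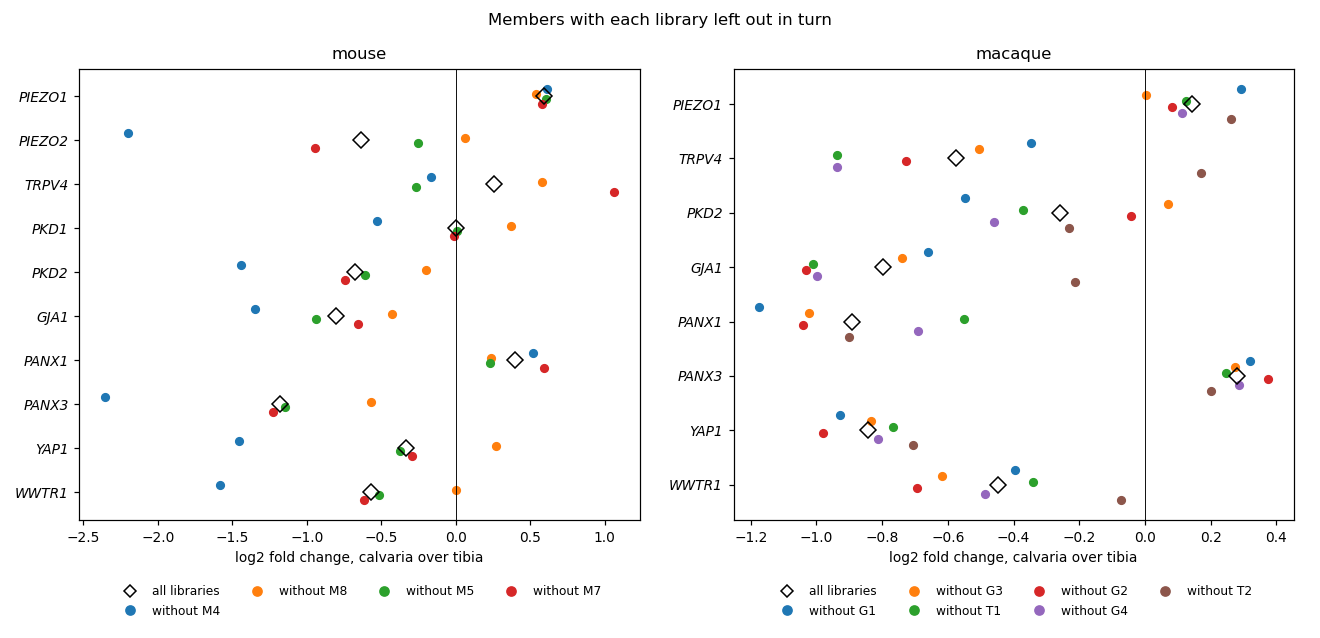
Log2 fold change of calvaria over tibia of each member with all libraries (open diamonds) and with each library left out in turn (coloured points), in mouse and macaque, where PKD1 is not drawn and PIEZO1, YAP1 and WWTR1 are the rows under other names. In mouse the points without M4 lie lowest for 7 of 10 members, and in macaque GJA1 moves from -0.80 to -0.21 without T2.

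The site difference itself was compared between mouse and macaque for the 6 members with a row in both. In an edgeR quasi-likelihood test of species by site, 0 of 6 were called, against 5.65% of 8196 shared symbols, and 1 of 6, PANX3, had an unadjusted p under 0.05. For PANX3 the difference, macaque minus mouse, was 1.47 ± 0.60 on the log2 scale with an adjusted p of 0.30, and it was called without M4 (2.61, adjusted p 0.0335). For PANX1 it was -1.29 ± 0.61 with an adjusted p of 0.37. For GJA1 it was 0.019 ± 0.56, an approximate 95% interval from -1.08 to 1.123 that leaves room for a difference in either direction. TRPV4 gave -0.83 ± 0.90 and PKD2 0.42 ± 0.67.

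With all libraries, the counts of the lists of related genes read against shares of all symbols. These were 2.28% called in mouse, 19.7% called in macaque and 9.69% past the threshold in rat. Macaque counts with a library left out read against all symbols called in the same fit. Those numbered 3214 of 18520 without G1, 2513 of 18592 without G2 and 2301 of 18675 without G3. They numbered 2804 of 18711 without G4, 3040 of 18521 without T1 and 4998 of 18549 without T2. Among other mechanosensitive and calcium channels, 1 of 19 tested was called in mouse and 1 of 11 in macaque, both higher in tibia. In mouse this was Kcnk2, a stretch-activated potassium channel, at 80.2 and 19.3 normalized CPM in M4 and M8 and 161 and 139 in M5 and M7 (log2 fold change -1.59 ± 0.46, adjusted p 0.18). No mouse channel of the list was called with library size alone or without M5, and 8 were called without M4 and 7 without M8. In macaque it was CACNA2D1, a subunit of voltage-gated calcium channels, at -0.72 ± 0.27 (adjusted p 0.0904). In rat 3 of 19 were past the threshold, all higher in tibia, namely CACNA2D1 with 139 and 822 reads, KCNK2 with 9 and 58, and CACNA1D with 13 and 51, of which CACNA1D was no longer past it with TMM scaling (-1.83). The median of this list was -0.03 in mouse, -0.63 in macaque and -1.26 in rat. Primary cilium genes had 0 of 13 called in mouse and 4 of 10 in macaque, all 4 higher in tibia, led by BBS4 of the BBSome at -1.24 ± 0.29 (adjusted p 0.0030) and followed by KIF3A, an intraflagellar transport motor, at -0.56 ± 0.19, and TTC21B at -0.68 ± 0.32. With a library left out, 1 macaque cilium gene was called without G3 or without G4 and 2 without G2, and 0 channels of the list were called without G3 or without G4. In rat 0 of 13 cilium genes were past the threshold.

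Among the other connexins, pannexin 2 and ATP receptors, 2 of 13 were called in mouse, both higher in tibia, while the list median there was 0.14 and 6 of 13 lay below 0. The mouse count was 0 without M5 or without M7 and 1 with library size alone, and it was 7 without M4 and 5 without M8, 2 of them higher in calvaria in each of these fits. Gja4, connexin 37 of arterial endothelium, had 4 and 11 reads in M4 and M8 and 86 and 74 in M5 and M7 (log2 fold change -3.19 ± 0.66, adjusted p 0.0373). Gja3, connexin 46, had 0 and 3 reads in calvaria and 26 and 33 in tibia, and its calvaria libraries are too low for a fold. Of 7 endothelial and pericyte markers 2 were called in mouse, Cdh5 and Pecam1, both higher in tibia. The sum of the 7 overlapped between the sites, at 160 to 287 normalized CPM in calvaria and 264 to 272 in tibia. Calvaria library M4 had the highest sum. The part of endothelial RNA in Gja4 was not tested. In macaque 2 of 7 were called, GJD3 at -1.13 ± 0.39 (adjusted p 0.0558) and TJP1, the tight junction scaffold ZO-1 that binds connexin 43, at -0.43 ± 0.19 (adjusted p 0.157). Only 1 was called without G1, G2, G4 or T2 and 0 without G3. In rat 5 of 11 were past the threshold, all higher in tibia, and those with most reads were GJA3 (52 and 304), GJA5 (21 and 156), GJA4 (23 and 87) and GJC1 (9 and 39). With TMM scaling GJA4 (-1.81) and GJC1 (-1.93) were no longer past it. The list median was -0.17 in macaque and -1.81 in rat.

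The Hippo kinases and TEAD cofactors that act on YAP1 and TAZ had 0 of 19 called in mouse and 4 of 9 in macaque. STK3, the kinase MST2, was higher in macaque tibia at -0.75 ± 0.22 (adjusted p 0.0174), while STK4, the kinase MST1, was higher in calvaria at 0.47 ± 0.19 (adjusted p 0.116). TEAD2, a partner of YAP1 on DNA, was at -0.65 ± 0.23 and WWC2 at -0.47 ± 0.21, both higher in tibia. With library size alone 4 were called in favour of tibia and 0 in favour of calvaria. The count fell to 2 without G1, G2 or G4 and to 1 without T1. In rat AMOTL1, with 382 and 1391 reads, and WWC1, with 10 and 202, were past the threshold in favour of tibia, AMOTL1 no longer with TMM scaling (-1.79).

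Among genes known as targets of YAP and TAZ, 3 of 22 were called in mouse, all higher in tibia, and 1 was called without M5 or without M7. Nt5e, the ectonucleotidase CD73, stood at 8.13 and 7.93 normalized CPM in M4 and M8 and at 38.4 and 42.7 in M5 and M7 (log2 fold change -2.34 ± 0.29, adjusted p 0.000836). Crim1 was at -1.18 ± 0.28 (adjusted p 0.0795) and Tgfb2, a growth factor of the TGF-beta family, at -1.13 ± 0.32 (adjusted p 0.18). In macaque 12 of 19 were called, 9 higher in tibia and 3 higher in calvaria. Those with the smallest p were GADD45A, a stress-response gene, higher in calvaria at 1.34 ± 0.18, and CCDC80 at -1.48 ± 0.21, TGFB2 at -1.25 ± 0.20 and ARHGEF17 at -1.07 ± 0.20, higher in tibia. TGFB2 stood at 882 to 1011 normalized CPM in macaque calvaria and at 1617 to 2621 in tibia. The counts with a library left out ran from 7 to 10 higher in tibia and from 2 to 4 higher in calvaria. With the replicate block for assumed pairs the counts were 11 and 4. In rat 7 of 21 were past the threshold, all higher in tibia, and TGFB2 (605 and 13575 reads), CTGF (1174 and 8062), IGFBP3 (259 and 2264) and PTPN14 (193 and 756) had the most reads, PTPN14 being no longer past it with TMM scaling (-1.90). The median of the list was -0.36 in mouse, -0.59 in macaque and -1.37 in rat. These genes answer many other signals, and nothing here measures YAP1 protein or its place in the cell.

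Among integrin and focal adhesion genes 0 of 16 were called in mouse with all libraries, and 10 without M4 and 2 without M8. In rat 0 of 16 were past the threshold. In macaque 4 of 15 were called, 2 in each direction, near the share of all symbols. MKL2, a cofactor of serum response factor, was higher in tibia at -0.87 ± 0.20 (adjusted p 0.0027), as was PTK2, focal adhesion kinase, at -0.67 ± 0.20. ZYX, zyxin of focal adhesions, was higher in calvaria at 1.05 ± 0.28 (adjusted p 0.0091), as was FLNA at 0.46 ± 0.19. The median of the list was 0.23 in mouse, 0.13 in macaque and -0.10 in rat.

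**Figure D5:**
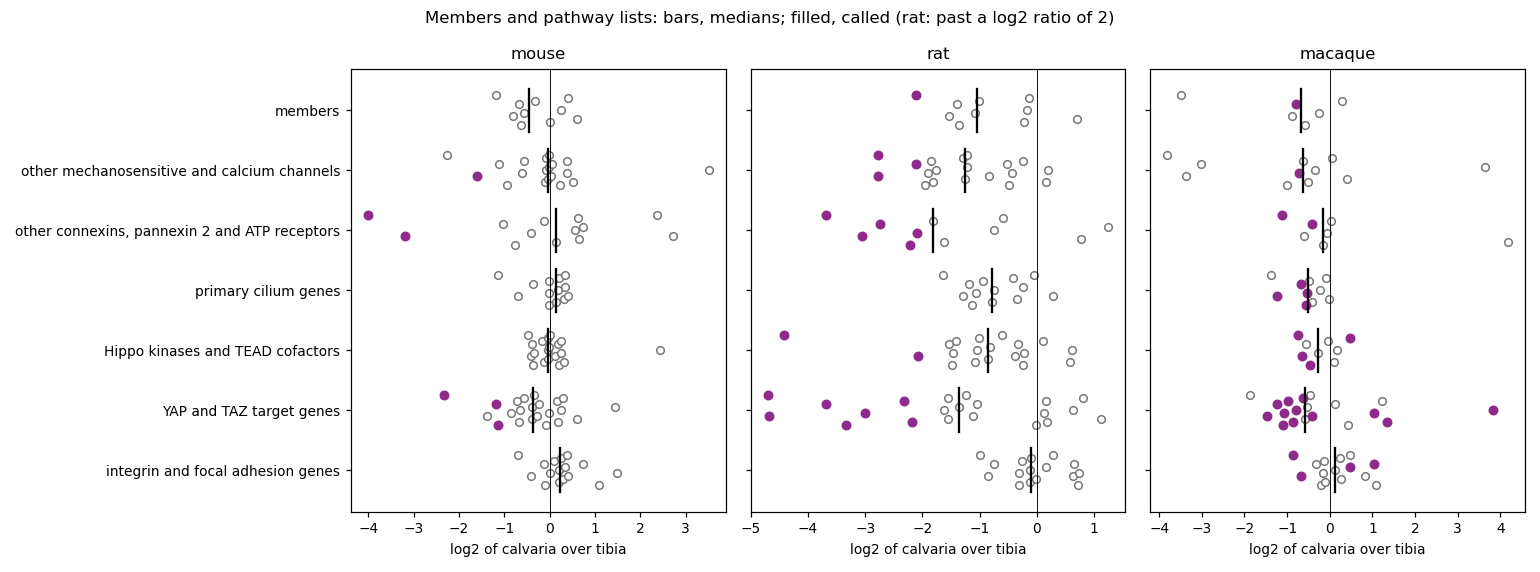
Log2 of calvaria over tibia for each gene of the members and of 6 lists of related genes in mouse, rat and macaque, with bars at the medians and filled points for called genes (in rat, past a log2 ratio of 2). In mouse, called genes lie left of 0, in favour of tibia, and among the macaque YAP and TAZ targets 9 filled points lie left and 3 right of 0. Genes with few reads take the most extreme open points.

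Across the 12 libraries, with log2 levels centred on each species' mean, the genes most like GJA1 among 4064 symbols shared by the 3 species were SEMA3D, SMAD6 and GTF2I, with Pearson's r of 0.96, 0.95 and 0.94. Those most like YAP1 were NR2F2, MYO10 and RAI2, with r of 0.98, 0.97 and 0.96. Those most like PIEZO1 were HEMK1, NDUFAB1 and RPS21, with r of 0.89, 0.89 and 0.87. The r of GJA1 with YAP1 was 0.78 and with PIEZO1 -0.30. The points share libraries, sites and cell makeup, so these values are a description over libraries.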

How the data were processed

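The authors mapped reads with HISAT2 and counted them per gene with HTSeq-count without strand, per their methods, while the labels' processing notes list BWA 0.7.10-r789, HTSeq and edgeR 3.16.5. The deposited value used was the raw count of reads per gene, with no normalization by the authors. The authors' normalized signal beside it was not used. The macaque build is MacaM per the methods. Rows naming no gene were dropped and rows of 1 symbol summed. Members are symbols read before the first comma of the description.

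Mouse and macaque were each fitted with edgeR 4.0.16 (TMM, quasi-likelihood test, Benjamini-Hochberg adjustment over all symbols with at least 1 read in a library). A gene was called below an adjusted p of 0.2 with a fold change of more than 1.1. Standard errors were back-calculated from the quasi-likelihood F statistic (absolute log2 value over root F), and fold change intervals use the normal approximation around them. Species by site was tested over 10 libraries. Rat ratios used CPM with 1 read added, and intervals are exact binomial ones at 95%, covering counting error only. Simulated counts had 200 genes changed by a log2 fold change of 2, drawn from genes above a floor of mean reads. Of these, 161 were called in the mouse design, 195 in macaque and 173 in the interaction. Unchanged genes made up 17.9%, 16.7% and 15.2% of the respective calls. Most members had smaller differences, for which recovery was not simulated. P-values measure the spread between libraries, which are pools of animals in mouse and single animals in macaque.

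The methods pair sites within animals without naming the pairs. With neighbouring macaque numbers as pairs, deviations from site means correlated at 0.21, 0.29 and 0.45 over 12088 genes, above all other combinations. Deviations at each site sum to 0, so an offset shared by T1 and T2 would raise their value and lower those of G with T. Within the libraries lettered G, the assumed pairs gave 0.21 and 0.29 and the other combinations 0.089 and 0.051. The members, lists, tests and settings were chosen with earlier results of these data known. Named genes were all members, per list the 4 called with the smallest p (in rat, with the most reads), and the 3 most like PIEZO1, GJA1 and YAP1 among genes with at least 50 reads on average in each species, except 1 gene that is not reported here. Mouse coordinates are from GENCODE vM21. R 4.3.3, DESeq2 1.42.0 and Python 3.11.15 were used, and alternatives are given with the closing observations.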

Additional observations from a re-analysis of the deposited data

Results flagged for a closer look

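In normalized CPM, PANX1 and PANX3 each separated the sites without overlap in mouse and in macaque, in opposite directions. Of all symbols, 35.7% did not overlap in mouse and 24.9% in macaque. Without TMM scaling the sites overlapped for macaque PANX3, where tibia library G2 was the highest. The difference between the species' site effects, macaque minus mouse, was -1.29 on the log2 scale for PANX1 and 1.47 for PANX3, and in the edgeR test of species by site neither was called (adjusted p 0.37 and 0.30). Macaque PANX1 rests on 2 to 11 reads per library.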

How the results depend on the processing

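With 4, 2 and 6 libraries in mouse, rat and macaque, and pools in rodents, precision was least for genes with few reads (PIEZO2, TRPV4, macaque PANX1). Called members in mouse numbered 0 in each of 12 alternatives that kept all libraries, and 0 to 9 with a library left out (9 without M4, 3 without M8). Called members in macaque numbered 1 in the fit reported, 2 with library size alone and with RefSeq symbols for LOC rows, 0 with DESeq2 and with an absolute log2 fold change over 1.1, and 0 to 2 with a library left out. Rat members past the threshold numbered 1, but 0 with 5 reads added or TMM factors and 6 at a log2 ratio of 1. The species by site test called 0 members and 0 to 1 with a library left out. Over all symbols, calls in mouse were 510, 29 with filterByExpr, 14 with a read in every library, 20 over shared symbols, 208 at 0.05, 295 with a block and 220 to 7470 with a library left out. In macaque they were 3724, 2136 over shared symbols, 1978 at 0.05, 1550 past a log2 fold change of 1.1 and 2301 to 4998 with a library left out. In the interaction they were 463, 35 at 0.05 and 33 to 1110. With library size alone macaque calls split into 1381 in favour of calvaria and 3118 of tibia, from 1943 and 1781, and with TMM factors rat ratios split into 501 and 1087, from 299 and 1565. Rat symbols past the threshold numbered 1864, 690 with 5 reads added and 6072 at a ratio of 1.

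These signs turned. Mouse PKD1 was -0.0037 with RLE factors and DESeq2, -0.066 with library size alone, -0.0041 with length offsets and -0.062 or -0.063 with a replicate block for assumed pairs. Macaque PIEZO1 (FAM38A) was -0.056 with library size alone and WWTR1 (LOC711567) 0.039 within the libraries lettered G. The GJA1 interaction was -0.0064 with RLE factors. In rat, TMM factors gave 0.12 for PIEZO1, 0.15 for PANX3 and 0.067 for WWTR1. With a library left out, mouse values ran from -2.20 to 0.066 for PIEZO2, -0.27 to 1.07 for TRPV4 (-0.16 without M4), -0.53 to 0.37 for PKD1 (-0.0078 without M7), -1.45 to 0.27 for YAP1 and -1.58 to 0.0057 for WWTR1, macaque values from -0.94 to 0.17 for TRPV4 and -0.55 to 0.071 for PKD2, and interactions from -0.054 to 1.15 for PKD2 and -0.36 to 0.62 for GJA1 (-0.12 without M7, -0.22 without G2, -0.16 without G4 and -0.17 without T1). The cause was not tested.

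With the replicate block, macaque GJA1 was -0.68 (adjusted p 0.000399) and YAP1 -0.83 (0.0394), both called as without it, and the block changed no call of a member in mouse or macaque. Called cilium genes in macaque numbered 5 with it and called integrin and focal adhesion genes 5, from 4 each. In mouse the pairing could not be checked, since with 2 libraries per site the correlations of deviations are 0.016 and -0.016 by construction.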
